A study of Mus musculus with 14 samples.

Results

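The genes described are 9 members of the TALE homeobox class: *Meis1*, *Meis2* and *Meis3*, *Pbx2* and *Pbx3*, and *Irx1*, *Irx2*, *Irx3* and *Irx5*. They were picked by symbol as regulators tied to the proximal limb bud, and all 9 were found among the 23284 gene symbols counted. RNA-seq of mouse forelimb buds compared 4 groups, with both forelimb buds of 1 embryo pooled as a replicate: 3 wild-type and 4 *Smad4* Δ/Δc embryos of 30 somites (E10.0), and 3 wild-type and 4 *Smad4* Δ/Δc embryos of 35 somites (E10.5). The comparison asks whether these regulators respond to the loss of SMAD4, the shared mediator of BMP and TGFβ signaling, in limb buds. The strain is NMRI according to the labels. Mutants are *Smad4* Δ/Δc; PrxCreT/+, with a constitutive null allele and an allele inactivated by CRE under the *Prrx1* limb enhancer. The controls, called wild type, are *Smad4*+/+; PrxCreT/+, so that all 4 groups carry the CRE transgene. CRE acts in the limb bud mesenchyme, and ectoderm, vessels and blood retain the allele that it would otherwise inactivate.

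TALE proteins are homeodomain transcription factors with an extended loop in the homeodomain, and MEIS, PBX and HOX proteins bind DNA together. In the limb bud, *Meis1* and *Meis2* are expressed in the proximal mesenchyme, where retinoic acid promotes and distal FGF signaling restricts their expression, and they mark the prospective upper arm. PBX proteins are partners of MEIS and HOX proteins and are needed for girdle and proximal limb development. The Iroquois genes lie in genomic clusters, and *Irx3* and *Irx5* have joint roles in limb skeletal development.

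In these forelimb buds, *Meis3* was the gene with a lower level in mutants: at E10.5 it stood at 5.67 ± 0.493 CPM (SD, n=4) against 9.89 ± 0.178 CPM in wild type (SD, n=3), whereas at E10.0 the genotypes overlapped. From E10.0 to E10.5, the decreases of *Meis2* and *Meis3* passed the thresholds in mutants, and that of *Irx5* passed in wild type. *Meis2* and *Meis3* were also lower at E10.5 in wild type, and *Irx5* in mutants (log2 fold change -0.19), without passing. For no member was the genotype difference shown to change between the stages. The *Irx5* call was lost when some single wild-type samples were left out. None of the other tested members passed the thresholds in any comparison of genotypes or stages. Expression is given as CPM, counts scaled to library size with TMM normalization, and a gene was called when its adjusted *P* did not exceed 0.1 and its level differed by 1.2 times or more. Adjusted *P*-values between 2 groups come from the exact test of edgeR, with Benjamini-Hochberg adjustment over all tested genes. Values by sample follow the replicate numbers, which are 1, 2 and 3 in wild type, 1, 3, 4 and 5 in mutants at E10.0 and 1, 2, 4 and 5 in mutants at E10.5. The filter, 1 CPM or more in 3 or more samples and no genes of chromosomes X, Y and M, left 12393 genes to test, with 8 of the 9 members among them, and *Irx1* did not pass it.

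*Meis2* and *Meis3*, the genes on which the results turn, are shown with the DNA around a start of transcription. The windows are from RefSeq (GRCm38.p6), hold 250 bases before and 50 bases from the start, and run 5′ to 3′ on the strand of the gene. Capitals mark CAGAC, or GTCTG on the other strand, the short DNA element that SMAD proteins are known to bind. The *Meis2* window is chr2:116064570-116064869 on the minus strand, and the *Meis3* window is chr7:16175145-16175444 on the plus strand.
Meis2: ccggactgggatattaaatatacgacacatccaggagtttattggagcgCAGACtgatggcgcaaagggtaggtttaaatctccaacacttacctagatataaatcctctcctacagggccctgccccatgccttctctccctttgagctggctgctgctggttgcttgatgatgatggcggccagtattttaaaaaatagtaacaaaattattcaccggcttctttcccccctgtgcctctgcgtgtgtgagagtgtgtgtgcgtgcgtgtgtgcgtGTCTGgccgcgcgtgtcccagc
Meis3: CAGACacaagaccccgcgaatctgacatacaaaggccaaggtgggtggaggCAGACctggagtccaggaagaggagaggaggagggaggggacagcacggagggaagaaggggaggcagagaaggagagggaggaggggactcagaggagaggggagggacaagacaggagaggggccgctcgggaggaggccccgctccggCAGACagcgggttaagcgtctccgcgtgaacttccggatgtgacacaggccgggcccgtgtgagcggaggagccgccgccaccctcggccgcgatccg
The *Meis3* window holds 3 matches, which begin 250, 199 and 48 bases before the start. The *Meis2* window holds 2, which begin 201 bases before and 28 bases after the start, with the first transcribed base counted as 0. Of all 32851 such windows in the table, 49.6% hold at least 1 match on either strand, 16.2% at least 2 and 3.90% at least 3. Windows were given for 6 members: *Irx2* and *Irx3* had 1 match each, and *Meis1* and *Pbx2* had 0. Windows for *Pbx3*, *Irx1* and *Irx5* were not analysed here. GGCGCC (its own reverse complement), which SMAD proteins also bind, TGACAG (or CTGTCA), a MEIS site, and AGGTCA (or TGACCT), the half-site of nuclear receptors, had 0 matches in the 6 windows, and 11.9%, 19.2% and 16.3% of all windows hold them. A match is a run of letters and was not tested as a binding site.

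The samples had 34066930 to 61691258 reads on genes. *Smad4* itself was lower in all mutants, with log2 fold changes of -2.01 (E10.0) and -2.16 (E10.5), and the genotypes did not overlap. The summed markers of limb mesenchyme (*Prrx1*, *Prrx2*, *Tbx5*, *Fgf10*, *Twist1* and *Pdgfra*) reached 1220 to 1773 CPM in all samples, whereas 4 neural tube markers summed to 0.173 to 0.569 CPM. The forelimb label thus has its mesenchymal markers. *Irx* and *Meis* genes are also expressed in the neural tube, whose 4 markers were all below the filter. The part of neural tube cells in the *Irx* and *Meis* levels was not tested. The rRNA precursor took 1.72% to 8.05% of the reads in mutant replicates 4 and 5 of both stages and 0.151% to 0.478% in the other 10 samples. These 4 libraries are all mutant, while the other 4 mutants had 0.151% to 0.456%, beside 0.214% to 0.478% in wild type, and values without the 4 libraries are given where they change a result. Reads were counted without regard to strand, and GENCODE places another gene over a part of *Irx3*, *Pbx2* (*Gpsm3*), *Pbx3* and *Meis1*, whose reads may be mixed with theirs or left out as ambiguous. As the buds were sequenced in bulk, fewer cells that express a gene and less RNA per cell cannot be told apart.

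**Figure D1:**
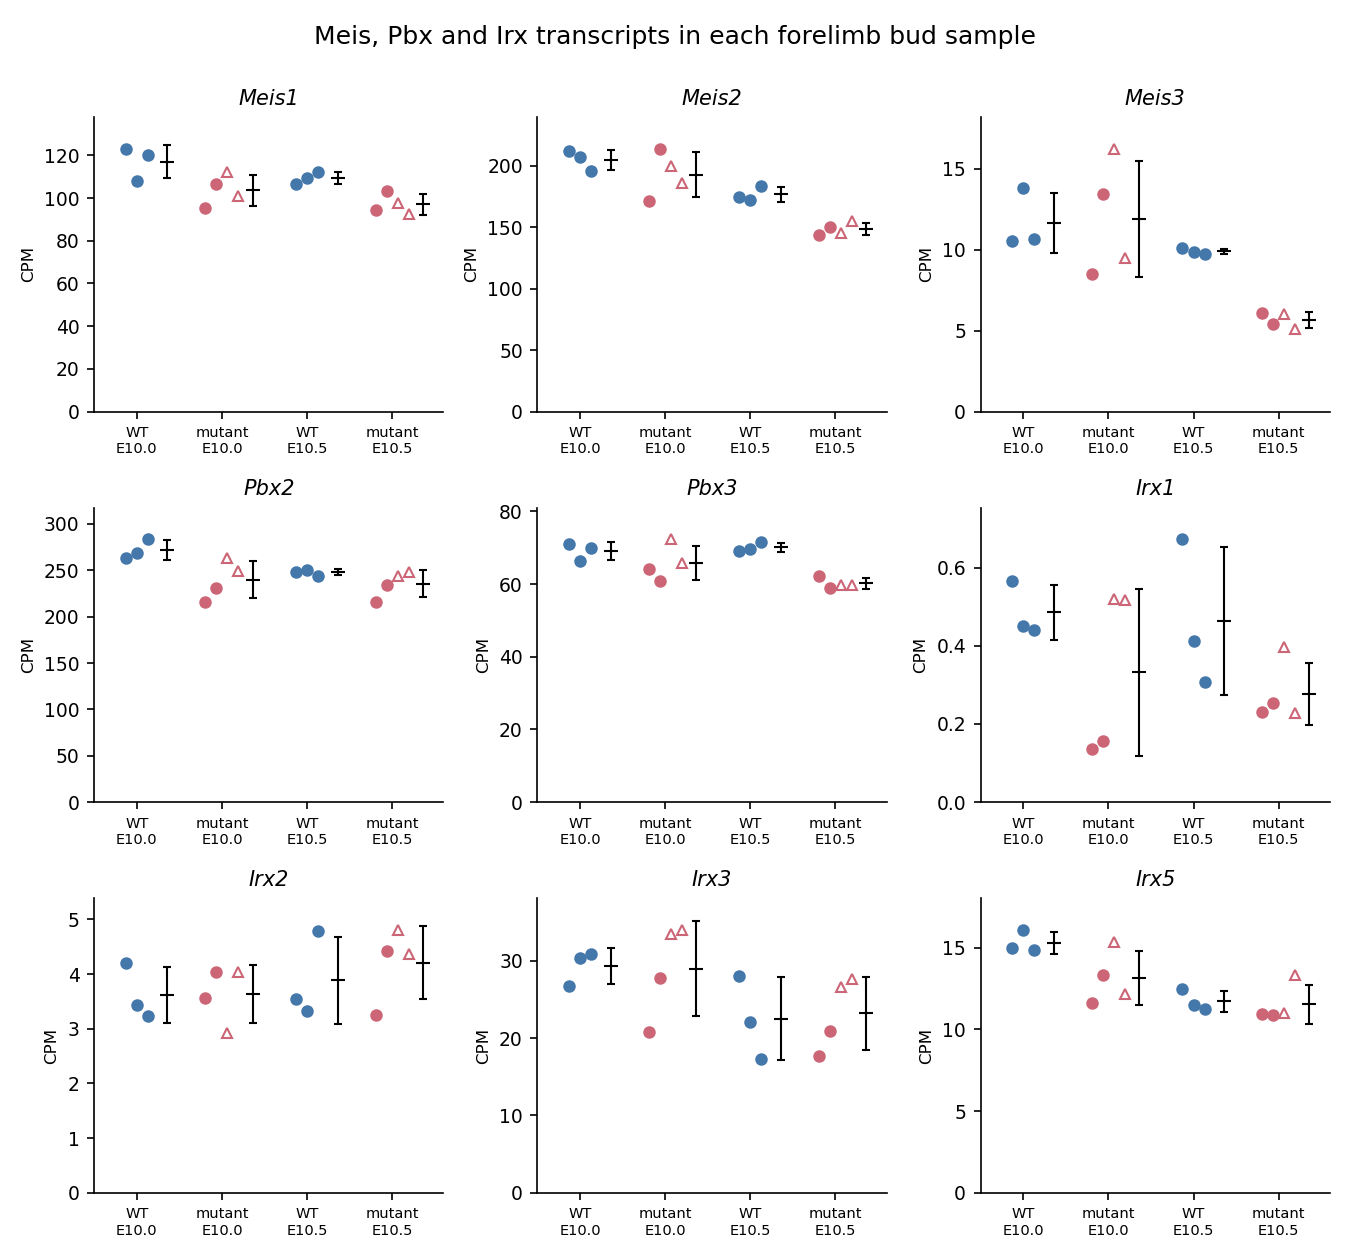
Expression (CPM, linear axes from 0) of the 9 genes in each sample, in blue for wild type and red for mutants; open triangles are mutant replicates 4 and 5, and black bars are mean ± SD. In the *Meis3* panel the 4 mutants at E10.5 lie between 5.11 and 6.11 CPM, below every other sample.

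The 9 genes covered a wide range of expression. Levels per kb of exon, for comparison between genes, use GENCODE exon lengths, which may differ from the authors' gene models. On this scale *Pbx2* was highest with 78.3 ± 2.99 CPM per kb in wild type at E10.0 (SD, n=3). *Meis1* (33.9 ± 2.27) and *Meis2* (31.0 ± 1.24 CPM per kb) followed, and their ranges overlapped in both genotypes at E10.0. *Pbx3* came next with 19.4 ± 0.686 CPM per kb, then *Irx3* with 12.5 ± 0.977. *Meis3* (6.41 ± 1.02) and *Irx5* (6.38 ± 0.282 CPM per kb) could not be ordered in wild type at E10.0, since their ranges overlapped. *Irx2* (1.30 ± 0.183) and *Irx1* (0.235 ± 0.0341 CPM per kb) were the lowest. The order of the 9 genes was the same in wild type at E10.5 and in mutants at E10.0. In mutants at E10.5, *Meis3* fell to 3.11 ± 0.271 CPM per kb, below *Irx5* with 4.80 ± 0.498 (SD, n=4), and the ranges of the 2 genes no longer overlapped. In mutants at E10.0 the ranges of *Irx3* and *Meis3* also overlapped.

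**Figure D2:**
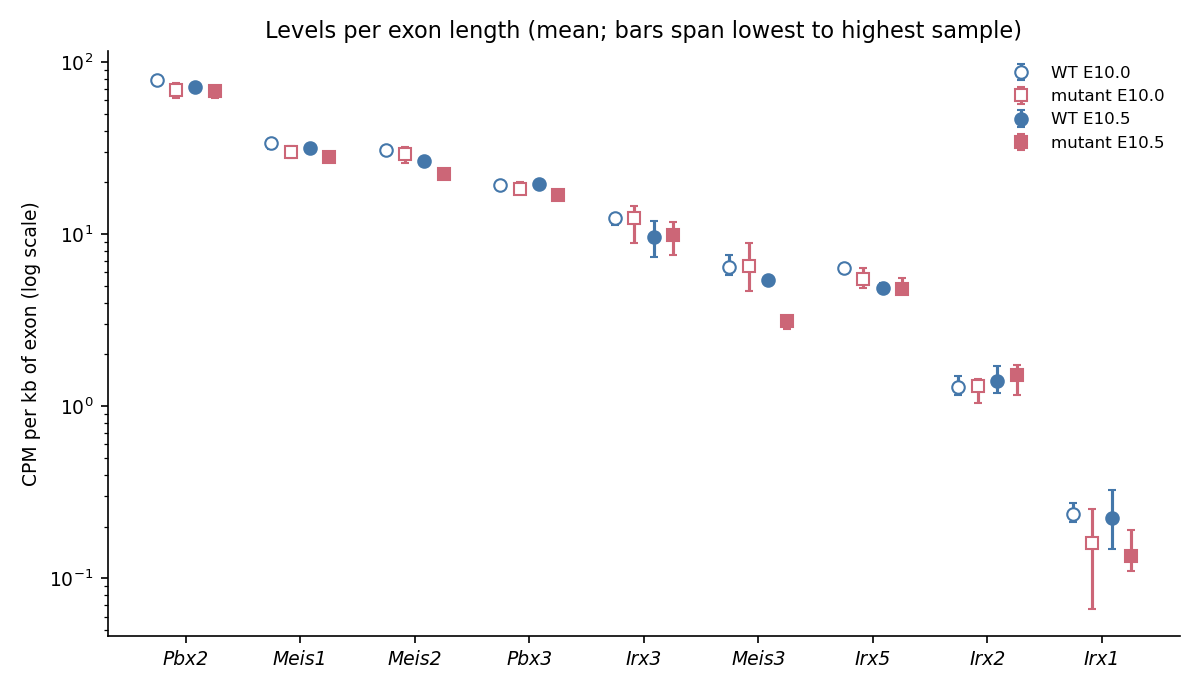
Level per kb of exon (CPM per kb, log axis) of the 9 genes in the 4 groups, ordered as in wild type at E10.0; points are group means and bars span the lowest to the highest sample. *Pbx2* is highest and *Irx1* lowest in all 4 groups, and *Meis3* drops below *Irx5* only in mutants at E10.5.

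*Meis3* (mm9, chr7:16760729-16771853, plus strand) is a MEIS paralog of lower expression. At E10.0 it stood at 10.5, 13.8 and 10.7 CPM in the wild-type embryos, and at 8.49, 13.4, 16.2 and 9.51 CPM in the mutants. The lowest and the highest sample were both mutants, and the log2 fold change was 0.03 (SE, standard error, 0.251). At E10.5 it stood at 10.1, 9.87 and 9.73 CPM in the wild-type embryos, and at 6.11, 5.40, 6.05 and 5.11 CPM in the mutants. All 4 mutants were below all wild-type samples at this stage, by more than the spread within either group. The log2 fold change was -0.80 (SE 0.0645), a decrease to 0.574 of the wild-type level, with an adjusted *P* of 0.00138 by edgeR. The call was made in all 7 fits that left out 1 sample of this stage, with log2 fold changes of -0.83 to -0.76. It was also made in the 9 other alternatives, with adjusted *P*-values of 8.17e-07 to 0.0939 (edgeR or DESeq2), the highest near the threshold of 0.1. With only the replicates numbered 1 to 3, the log2 fold change was -0.77 (adjusted *P*=0.00649, edgeR). The counts behind it were 420 to 503 reads per wild-type and 157 to 344 reads per mutant sample.

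*Meis2* (mm9, chr2:115688800-115891575, minus strand) is expressed in the proximal mesenchyme together with *Meis1*. At E10.0 it had 212, 207 and 196 CPM in wild-type embryos and 171, 214, 200.2 and 186 CPM in the mutants. The genotypes overlapped at this stage (log2 fold change -0.09, SE 0.0768). At E10.5 it had 175, 172 and 184 CPM in wild-type embryos and 144, 149.9, 145 and 155 CPM in the mutants. Here every mutant was below every wild-type sample, and the log2 fold change was -0.25 (SE 0.0374). It nevertheless missed both thresholds, with an adjusted *P* of 0.100446 by edgeR and a level of 0.841 of wild type. The adjusted *P* ranged from 0.0347 to 0.237 over the 9 alternatives that did not leave out a single sample, and the fold change stayed under the minimum in all 9.

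*Meis1* (mm9, chr11:18780433-18918961, minus strand) is the other MEIS gene of the proximal limb bud. At E10.0 it had 123, 108 and 120.0 CPM in wild-type embryos and 95.3, 107, 112 and 101 CPM in the mutants. At E10.5 it had 106, 109 and 112 CPM in wild-type embryos and 94.5, 104, 97.9 and 92.4 CPM in the mutants. Mutant replicate 4 at E10.0 was above wild-type replicate 2, whereas the genotypes did not overlap at E10.5. The log2 fold changes were close to each other, with -0.18 at E10.0 (SE 0.076, edgeR-adjusted *P*=0.234) and -0.17 at E10.5 (SE 0.042, edgeR-adjusted *P*=0.45), and neither passed.

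*Pbx2* (mm9, chr17:34728211-34734345, plus strand) is a PBX partner gene with broad expression. At E10.0 it had 263, 269 and 283 CPM in wild-type embryos and 216, 231, 263 and 249.5 CPM in the mutants. The mutants were all lower, although replicate 4 with 262.766 CPM was next to the lowest wild-type sample with 263.267 CPM. The log2 fold change of -0.18 (SE 0.0692) did not pass, with an adjusted *P* of 0.238 by edgeR. With only the replicates numbered 1 to 3, which left mutant replicates 1 and 3 at this stage, it was -0.26 and passed (adjusted *P*=0.0166, edgeR). In that fit 2018 of 12288 genes were called, 1253 of them lower, against 819 of 12393 genes with all samples. At E10.5 the genotypes overlapped, with 248, 250.5 and 244 CPM in wild-type embryos and 215, 234, 244 and 248 CPM in the mutants. The overlap came from mutant replicate 5 alone, since replicate 4 with 243.888 CPM was just below the lowest wild-type sample with 244.219 CPM. At both stages mutant replicates 4 and 5 had more *Pbx2* than the other mutants, and the part of the rRNA-rich libraries in it was not tested.

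*Pbx3* (mm9, chr2:34026977-34228660, minus strand) is the second PBX member. It had 71.1, 66.4 and 70.0 CPM in wild-type embryos at E10.0 and 64.2, 60.9, 72.3 and 65.8 CPM in the mutants. At E10.5 it had 69.0, 69.8 and 71.6 CPM in wild-type embryos and 62.2, 59.0, 59.6 and 59.8 CPM in the mutants. The highest sample at E10.0 was a mutant, whereas at E10.5 all mutants were below all wild-type samples. Its log2 fold change reached -0.07 at E10.0 and -0.22 at E10.5 (SE 0.0228), and the latter did not pass (adjusted *P*=0.156, edgeR).

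*Irx3* (mm9, chr8:94322428-94325553, minus strand) and *Irx5* (chr8:94881695-94885351, plus strand) belong to 1 Iroquois cluster. *Irx3* had 26.7, 30.3 and 30.9 CPM in wild-type embryos at E10.0 and 20.7, 27.8, 33.4 and 34.0 CPM in the mutants. At E10.5 it had 28.0, 22.1 and 17.3 CPM in wild-type embryos and 17.6, 20.9, 26.6 and 27.6 CPM in the mutants. At both stages mutant replicates 4 and 5 had more *Irx3* than the other 2 mutants, and the genotypes overlapped. The log2 fold change between genotypes was -0.02 at E10.0 (SE 0.178) and 0.04 at E10.5 (SE 0.251). With only the replicates numbered 1 to 3 it was -0.25 at the earlier and -0.21 at the later stage, and did not pass either (adjusted *P*=0.316 and 0.605, edgeR), and the part of the rRNA-rich libraries in it was not tested.

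*Irx5* had 15.0, 16.1 and 14.8 CPM in wild-type embryos at E10.0 and 11.6, 13.3, 15.4 and 12.2 CPM in the mutants. At E10.5 it had 12.4, 11.5 and 11.2 CPM in wild-type embryos and 10.9, 10.9, 11.0 and 13.3 CPM in the mutants. The genotypes overlapped at both stages through a single mutant each time, replicate 4 at E10.0 and replicate 5 at E10.5. Between genotypes its log2 fold change amounted to -0.22 at E10.0 (SE 0.0951, adjusted *P*=0.333) and -0.03 at E10.5 (adjusted *P*=0.99, both by edgeR).

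*Irx1* (mm9, chr13:72095680-72101171, minus strand) and *Irx2* (chr13:72766245-72771644, plus strand) belong to another Iroquois cluster. *Irx2* ranged from 2.92 to 4.81 CPM over all 14 samples, with group means of 3.62 ± 0.51 and 3.63 ± 0.526 CPM in wild type and mutants at E10.0 and 3.89 ± 0.79 and 4.21 ± 0.67 CPM at E10.5. The genotypes overlapped at both stages, with log2 fold changes of 0.01 and 0.11 (SEs 0.156 and 0.202). *Irx1* was counted with 7 to 31 reads per sample, or 0.137 to 0.672 CPM, and was tested only in the fit with no filter. There the log2 fold changes were -0.60 at E10.0 and -0.74 at E10.5 in mutants, and *Irx1* was not called (adjusted *P*=0.661 and 0.698, edgeR). The genotypes overlapped at both stages.

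Between genotypes at E10.0, 0 of the 8 tested members passed by edgeR's exact test, its quasi-likelihood test or DESeq2, while over all genes 3.33% were called higher and 3.28% lower in mutants. *Meis1* and *Pbx2* had an unadjusted *P* under 0.05, 2 of 8 members against 17.7% of all genes tested. At E10.5 the same held for 4 of 8 members (*Meis1*, *Meis2*, *Meis3* and *Pbx3*), against 10.2% of all genes. At E10.5, 1 of the 8 (*Meis3*) was called lower and 0 higher, against 1.54% called lower and 2.19% called higher over all genes. The groups did not overlap and mutants were lower in 1 member at E10.0 (*Pbx2*), against 9.78% of all genes, and in 4 members at E10.5 (*Meis1*, *Meis2*, *Meis3* and *Pbx3*), against 6.4% of all genes. The median log2 fold change of the 8 members was -0.08 at E10.0 and -0.12 at E10.5, beside -0.02 and -0.01 over all genes tested.

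**Figure D3:**
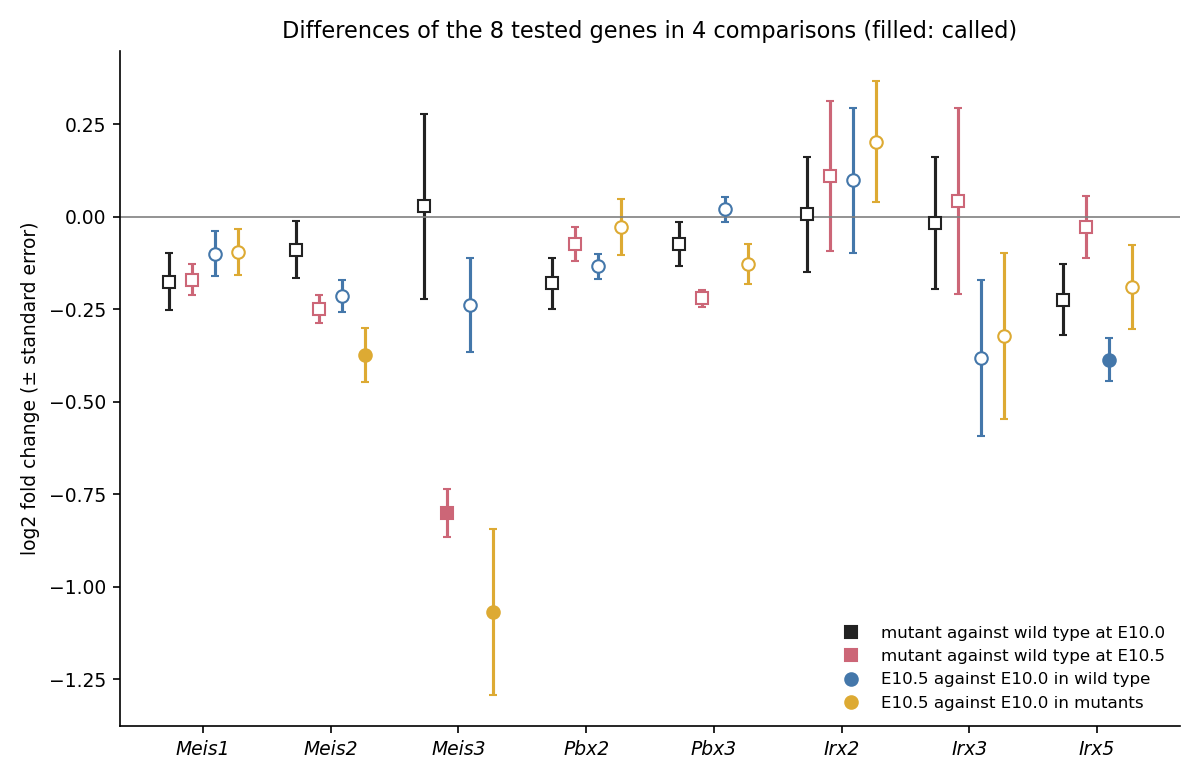
Log2 fold changes of the 8 tested genes in 4 comparisons (squares, mutant against wild type; circles, E10.5 against E10.0), with standard errors from the replicate variances; filled symbols were called. The filled symbols are *Meis3* and *Meis2* between stages in mutants, *Meis3* between genotypes at E10.5 and *Irx5* between stages in wild type.

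Between the stages, *Meis3* dropped in mutants, with 11.9 ± 3.58 CPM at E10.0 and 5.67 ± 0.493 CPM at E10.5 (SD, n=4 each) and a log2 fold change of -1.07 (SE 0.225, adjusted *P*=6.06e-08, edgeR). *Meis2* dropped in mutants with 193 ± 18.3 CPM at E10.0 and 149 ± 5.12 CPM at E10.5, and a log2 fold change of -0.37 (SE 0.0733, adjusted *P*=6.53e-05, edgeR). In both genes every mutant at E10.5 was below every mutant at E10.0, and both were called in all 8 fits that left out 1 mutant sample. With only the replicates numbered 1 to 3 the log2 fold changes were -0.92 for *Meis3* and -0.38 for *Meis2*, both called. In mutants, 2 of 8 members were thus called lower and 0 higher at E10.5, against 8.4% lower and 10.8% higher over all genes. The remaining 6 had log2 fold changes of -0.32 (*Irx3*) to 0.20 (*Irx2*). *Irx3* was called lower when mutant replicate 1 of E10.0 (log2 fold change -0.45, edgeR-adjusted *P*=0.0254) or mutant replicate 5 of E10.5 (-0.42, edgeR-adjusted *P*=0.0966) was left out.

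In wild type, *Meis3* and *Meis2* were also lower at E10.5 in every sample but did not pass, with log2 fold changes of -0.24 (SE 0.128, adjusted *P*=0.523) and -0.21 (SE 0.0439, adjusted *P*=0.144, both by edgeR). *Irx5* dropped in wild type, with 15.3 ± 0.678 CPM at E10.0 and 11.7 ± 0.641 CPM at E10.5 (SD, n=3 each) and a log2 fold change of -0.39 (SE 0.0578, adjusted *P*=0.0495, edgeR), and the stages did not overlap. This call was lost when wild-type replicate 2 or 3 of either stage was left out, with adjusted *P*-values of 0.268 and 0.116 without replicates 2 and 3 of E10.0 and of 0.184 and 0.278 without replicates 2 and 3 of E10.5 (edgeR). *Irx3* was lower at E10.5 in wild type by -0.38 on the log2 scale (SE 0.211, adjusted *P*=0.229, edgeR), and passed in 3 of the 9 other alternatives and in 1 of 6 fits that left out a wild-type sample, that without replicate 1 of E10.5 (log2 fold change -0.56, edgeR-adjusted *P*=0.0712). In wild type, 1 of 8 members was called lower and 0 higher, against 4.74% lower and 5.39% higher over all genes. The stages did not overlap in *Meis2*, *Meis3*, *Irx5* and also *Pbx2* (log2 fold change -0.13, adjusted *P*=0.413, edgeR). The share of all genes without overlap between stages is not reported here for either genotype. The lack of overlap between stages therefore only describes these members.

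Whether the genotype difference changed between the stages was tested as an interaction of stage and genotype over all 14 samples, which shares these samples with the comparisons above. None of the 8 members was called by edgeR's quasi-likelihood test or by DESeq2, and 0.186% of all genes were called in either direction by the quasi-likelihood test. *Meis3* had the largest interaction of the 8, -0.83 on the log2 scale (SE 0.259), with an unadjusted *P* of 0.00592 and an adjusted *P* of 0.518 after Benjamini-Hochberg adjustment in edgeR. It was the 1 member with an unadjusted *P* under 0.05, beside 5.76% of all genes. A difference of *Meis3* or *Meis2* (interaction -0.16, edgeR-adjusted *P*=0.95) between the stages' genotype effects was therefore not shown.

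**Figure D4:**
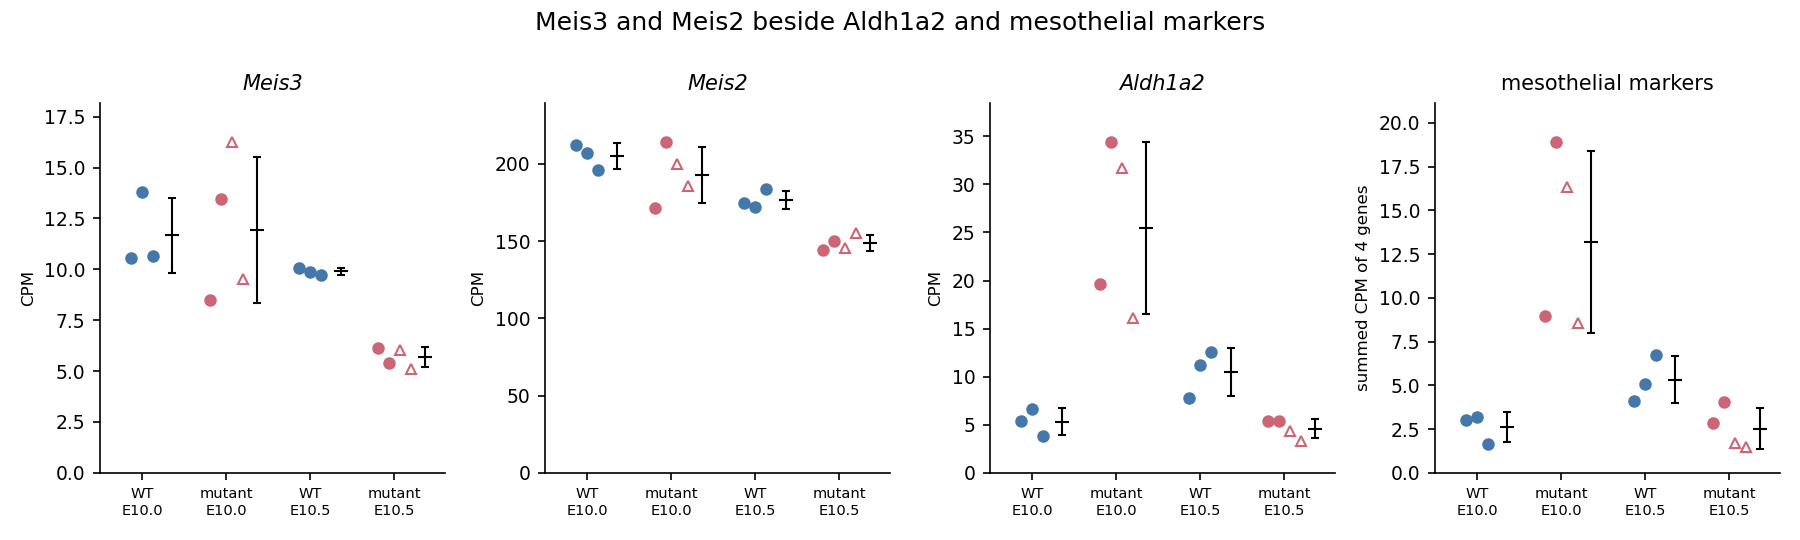
*Meis3*, *Meis2* and *Aldh1a2* (CPM) and the sum of 4 mesothelial and body wall markers (summed CPM) in each sample, in blue for wild type and red for mutants; open triangles are mutant replicates 4 and 5, and black bars are mean ± SD. At E10.0, mutant replicates 3 and 4 are the 2 highest mutants in all 4 panels, and at E10.5 the mutants are below wild type in all 4.

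Markers of neighbouring tissue also differed between the groups. The summed mesothelium and body wall markers (*Wt1*, *Upk3b*, *Msln* and *Upk1b*) had 1.63 to 3.17 CPM in wild type and 8.57 to 18.9 CPM in mutants at E10.0, and 4.13 to 6.76 CPM in wild type and 1.5 to 4.04 CPM in mutants at E10.5. Within the mutants at E10.0 the sum was 8.95, 18.9, 16.3 and 8.57 CPM in replicates 1, 3, 4 and 5, and replicates 3 and 4 were also those with the most *Meis3*. None of the 4 markers was at 0 reads in a whole group. Of the 3 that were tested, *Wt1* and *Upk3b* were called higher at E10.0 and lower at E10.5 in mutants, and *Upk1b* was called in neither. The marker sum and *Meis3* were thus both lower in mutants at E10.5, whereas at E10.0 the sum was higher in mutants and the log2 fold change of *Meis3* was 0.03. In wild type the sum was higher at E10.5 than at E10.0 in every sample, and *Meis3* was lower in every sample. In mutants, the sum, *Meis3* and *Meis2* were all lower at E10.5 than at E10.0 in every sample. *Wt1* and *Upk3b* were called lower between these stages in mutants (log2 fold changes of -2.67 and -4.14), and *Upk1b* was called higher (0.89). The part of mesothelial cells in the *Meis3* and *Meis2* levels was not tested. Limb ectoderm, endothelium and blood markers had 0 members called between genotypes at either stage, of 6, 4 and 4 tested. Somite and muscle precursor markers had 2 of 5 called higher at E10.0 (*Meox1* and *Myf5*) and 1 of 5 called higher at E10.5 (*Meox2*), the hindlimb marker *Tbx4* was called higher at E10.5, and of 6 limb mesenchyme markers 4 were called lower at E10.0 and 3 lower and 1 higher at E10.5. Neural tube and neural crest markers were all below the filter.

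*Aldh1a2*, the enzyme that makes retinoic acid in the flank, had the largest changes of the retinoic acid list. It had 5.42, 6.62 and 3.83 CPM in wild-type embryos at E10.0 and 19.6, 34.4, 31.7 and 16.1 CPM in the mutants. At E10.5 it had 7.75, 11.2 and 12.6 CPM in wild-type embryos and 5.37, 5.34, 4.33 and 3.25 CPM in the mutants. Mutants were thus all higher at E10.0 and all lower at E10.5, with log2 fold changes of 2.27 and -1.20 (adjusted *P*=1.90e-14 and 0.000157, edgeR), and the interaction was called (-3.45, adjusted *P*=0.00329, edgeR's quasi-likelihood test). *Meis1* and *Meis2*, which retinoic acid is known to promote, had log2 fold changes of -0.18 and -0.09 in mutants at E10.0 and of -0.17 and -0.25 at E10.5, where every mutant was below every wild-type sample for both genes. None of these 4 differences passed.

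At E10.5 the other named genes of this list were *Cyp26b1*, which degrades retinoic acid in the distal limb bud, *Rarb*, a receptor and target of retinoic acid, and *Crabp1*, a binding protein. *Cyp26b1* rose from 146 ± 10.1 to 220 ± 12.1 CPM in mutants (log2 fold change 0.60, adjusted *P*=0.0117), *Crabp1* rose by 0.38 on the log2 scale (adjusted *P*=0.0631), and *Rarb* fell from 40.0 ± 1.13 to 30.0 ± 3.69 CPM (log2 fold change -0.41, adjusted *P*=0.0205, all by edgeR). In all, 1 of 12 tested genes of the list was called higher and 0 lower in mutants at E10.0, and 3 were called higher and 2 lower at E10.5. The list's median log2 fold change was -0.03 at E10.0 and -0.12 at E10.5.

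Other TALE genes and partners (*Pknox1*, *Pknox2*, *Tgif1*, *Tgif2*, *Mkx*, *Irx4*, *Irx6*, *Pbx4* and *Pbxip1*) had 0 of 8 tested genes called between genotypes at either stage, with log2 fold changes of -0.45 to 0.27 at E10.0 and of -0.23 to 0.22 at E10.5. Between stages, *Mkx* rose in wild type and *Mkx* and *Pbxip1* rose in mutants, genes named after their values were seen. *Mkx*, a TALE factor of tendons, rose from 5.01 ± 0.5 to 11.3 ± 1.10 CPM in wild type and from 5.95 ± 1.30 to 13.1 ± 0.522 CPM in mutants. The median log2 fold change of these 8 genes between genotypes was -0.16 at E10.0 and -0.02 at E10.5.

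Of 6 proximal limb and shoulder girdle genes, 2 were called higher and 2 lower in mutants at E10.0, and 1 higher and 3 lower at E10.5, with a median log2 fold change of 0.08 and -0.20. *Pax1*, a gene of the shoulder girdle, and *Pkdcc*, a kinase gene of skeletal growth, were lower at both stages (log2 fold changes of -2.61 and -0.81 at E10.5), *Tbx15*, a gene of the scapula, was higher at both (0.55 at E10.5) and *Alx1* was lower at E10.5 (-0.60). Of 7 distal limb genes, *Hoxd13* was called higher and *Lhx2* lower at both stages, with log2 fold changes of 0.48 and -0.54 at E10.5, and the median of the list was -0.14 at E10.0 and 0.01 at E10.5.

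Among all tested genes, those with the most similar pattern over the 14 samples were named by Pearson's correlation of log2 CPM. For *Meis3* these were *Vapb* (r=0.939), *B4galt5* (0.934) and *Nxph3* (0.932). For *Meis2* they were *Ifitm3* (0.941), *Dok4* (0.94) and *Eif4ebp1* (0.939), and for *Meis1* they were *Coq6* (0.938), *Poldip3* (0.909) and *Dak* (0.904). Among the members themselves *Meis2* and *Meis3* were most alike (r=0.899, n=14 samples), followed by *Meis2* and *Irx5* (0.773), whereas the coefficients of *Irx2* with the 7 others were all negative (-0.50 with *Meis3*). These coefficients describe 14 samples that share stage, genotype and, in 4 of them, a high share of rRNA precursor.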

How the data were processed

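RNA-seq libraries came from poly(A) RNA of 14 forelimb bud pairs. According to the labels and the methods, the authors aligned single-end reads to mm9 and refGene transcripts with TopHat2 2.0.13, kept uniquely mapped reads and deposited raw counts per gene symbol from HTSeq, made without regard to strand and not normalized. The groups were taken from the sample labels. The members, the gene lists and the tests were chosen with earlier results of these data known, and not every TALE gene is reported here.

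The tests took in the 12393 genes off chromosomes X, Y and M that reached 1 CPM in 3 or more samples. Pairs of groups were compared with the exact test of edgeR 4.0.16 (TMM, tag-wise dispersions estimated over all 14 samples with prior.df=10, Benjamini-Hochberg adjustment), and genes were called at an FDR of up to 0.1 and a fold change of 1.2 or more. The interaction was tested with edgeR's quasi-likelihood test. Standard errors come from replicate variances of log2 CPM with a prior count of 2. Alternatives were the quasi-likelihood test, DESeq2 1.42.0, RLE size factors, no filter, chromosomes X, Y and M kept, separate fits, an FDR of 0.05, the replicate number as a block, replicates 1 to 3 only and leaving out each sample. The scripts were tested on simulated counts. Exon lengths and positions are those of GENCODE on NCBIM37 (mm9) and may differ from the authors' gene models.

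Listed genes were named when called between genotypes, up to 4 per list by smallest *P*, as were the 3 genes most alike *Meis1*, *Meis2* and members called between genotypes. In the stage comparison of mutants, deviations of same-numbered samples correlated with r=0.214 to 0.556 over 3 pairs (replicates 1, 4 and 5). Differently numbered samples had r=-0.487 to 0.298 over 13 pairs. All values among replicates 1 to 3 and among replicates 4 and 5 were positive, and all values between these sets were negative. The numbers were thus not shown to pair these samples. The sources do not say what the numbers share. Replicates differed by more than sampling noise, and each was 1 embryo. R 4.3.3, Python 3.11.15 and matplotlib 3.10.9 were used.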

Additional observations from a re-analysis of the deposited data

Results flagged for a closer look

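*Irx5* in mutant replicate 5 at E10.5 was 13.307 CPM, apart from the other 3 mutants of that stage, which lay between 10.9 and 11.0 CPM, and its gap was 0.943 of the range of the group. *Irx1* in mutant replicate 4 at E10.5 was 0.395876 CPM, or 14 reads, with a gap of 0.847 of the range to the next sample. Both exceed Dixon's critical value of 0.829 for groups of 4. Chance passes this value in about 1 of 20 groups, and 18 groups of 4 were examined. Both samples belong to the 4 mutant libraries with 1.72% to 8.05% of reads on the rRNA precursor, and its part in these values was not tested.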

How the results depend on the processing

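Of 680 log2 fold changes recomputed over 40 combinations of gene and comparison, 620 kept their direction and side of the thresholds, 9 passed and 4 no longer passed in the same direction, and 47 changed sign, all of them in genes that were not called. *Meis3* between genotypes at E10.5 was called in all alternatives, with adjusted *P*-values of up to 0.0939 (edgeR or DESeq2). *Meis2* and *Meis3* between stages in mutants were called in all alternatives too. The number of members called between genotypes at E10.0 was 0 except with the replicate block (2, *Meis1* with a log2 fold change of -0.27 and an adjusted *P* of 0.0663, and *Pbx2* with -0.29 and 0.0443, edgeR) and with replicates 1 to 3 only (1, *Pbx2*). Between stages in wild type it was 2 in place of 1 with each genotype fitted apart, with the replicate block and with replicates 1 to 3 only (*Irx3* and *Irx5*), and 0 to 2 when a sample was left out. The cause was not tested. In mutants it was 2 to 3 when a sample was left out. The replicate block changed no call of a member there, although the numbers were not shown to pair these samples. In the other comparisons the mean r of same-numbered samples was 0.00613 at E10.0, -0.171 at E10.5 and -0.113 in wild type. No member had a called interaction under any alternative.

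Values that changed sign were as follows. With replicates 1 to 3 only, the log2 fold change between genotypes was -0.072 for *Meis3* at E10.0, -0.0094 for *Irx2* and -0.21 for *Irx3* at E10.5, that between stages in mutants 0.013 for *Pbx2*, and the interaction of *Irx2* -0.090. With the replicate block, *Irx3* was -0.38 at E10.5 and its interaction -0.12. *Irx3* at E10.0 was 0.0025 with DESeq2, 0.0023 with RLE size factors and 0.0022 with no filter, and the interaction of *Meis1* was -0.0048, -0.0053 and -0.00995 under the same 3 settings. When single samples were left out, the ranges at E10.0 were -0.15 to 0.17 for *Meis3*, -0.059 to 0.13 for *Irx2* and -0.10 to 0.12 for *Irx3*, and at E10.5 -0.11 to 0.24 for *Irx3* and -0.10 to 0.024 for *Irx5*. Between stages they were -0.0084 to 0.040 for *Pbx3* and -0.075 to 0.22 for *Irx2* in wild type and -0.071 to 0.018 for *Pbx2* in mutants, and for the interaction -0.035 to 0.059 for *Meis1*, -0.017 to 0.28 for *Irx2* and -0.10 to 0.24 for *Irx3*.

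Counts over all genes moved more. At E10.0, 819 genes were called, 506 at an FDR of 0.05, 1990 with the replicate block, 2018 with replicates 1 to 3 only, and 254 to 1062 when a sample was left out. At E10.5, 462 were called, and 286 to 468 when a sample was left out. Between stages in wild type it was 1256, 1932 with the genotype fitted apart, 1899 with the replicate block, and 484 to 1357 when a sample was left out. The interaction had 23, 87 with DESeq2, 39 with no filter, 9 at an FDR of 0.05, 6 with replicates 1 to 3 only, 0 with the replicate block, and 7 to 34 when a sample was left out. *Irx1*, with 7 to 31 reads per sample, was tested only with no filter, where it was called in none of the 5 comparisons (adjusted *P* of 0.661 to 1, edgeR).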
